A study of Mus musculus with 6 samples.

Results

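The 33 genes described here encode the mitochondrial route of fatty acid oxidation and the enzymes of ketone synthesis that accompany it. They were taken by name from a deposited table of 30889 genes, and all 33 have a row and passed the filter on low counts. The study sequenced liver messenger RNA from 6 mouse libraries after 14 days of oral treatment. The control group (3 libraries) received phosphate buffered saline. The extract group (3 libraries) received a water extract of the herb Emilia sonchifolia. Strain, sex, age and dose are not given in the sources used here. Nothing in the labels ties a library to 1 animal, so a p-value here reflects spread among libraries that could be technical replicates.

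Fatty acids enter oxidation as coenzyme A esters made by acyl-CoA synthetases. Long-chain esters cross into mitochondria through the carnitine shuttle, whose gate is carnitine palmitoyltransferase 1 (Cpt1a in liver). There, dehydrogenases, hydratases and thiolases shorten the chain in repeated cycles, and the electrons pass to the respiratory chain through the electron transfer flavoproteins. In liver much of the acetyl-CoA released can be turned into ketone bodies for export, above all during fasting. Many of these genes are known targets of the nuclear receptor PPARalpha.

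Levels are given as FPKM, fragments scaled for gene length and for the mapped fragments of the library, as deposited. Fold changes come from edgeR's quasi-likelihood test on the deposited counts, with Benjamini-Hochberg adjustment over the 18071 genes tested and a threshold of 0.05. In control liver the 33 genes ran from 1.38 FPKM (Acot2) to 336 FPKM (Acaa2), and 22 of them stood above the 90th percentile of all genes tested. Total counts per library ran from 51219533 to 61432016. Counts were scaled by TMM factors, which FPKM values are not, so small differences can have another size or sign on the FPKM scale. Uncertain members are named where they are described.

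Of the 4 long-chain acyl-CoA synthetases 3 rose with the extract, and of the 4 carnitine shuttle genes 1 rose. Acsl4 and Acsl3, synthetases of long-chain acyl-CoA, were 2.47 and 2.0 times higher, and Cpt1a was 1.74 times higher. Acot1, a thioesterase that splits acyl-CoA, fell by 1.37 on the log2 scale. In all, 11 of the 33 genes were called higher and 2 lower, 39.4% together, where 26.9% of all genes tested were called (14.2% higher and 12.8% lower). Called changes of at least 1 on the log2 scale numbered 3 of 33, against 5.28% of all genes. Abundant genes pass more easily: among genes with a mean of at least 5 FPKM, tested alone, 51.4% were called (26.4% higher and 25% lower), and among the 30 members in that range 13 (43.3%), 10 higher and 3 lower. The median log2 fold change over the members was 0.10, against -0.02 over all genes tested, and the median size without sign was 0.15 against 0.27.

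**Figure D1:**
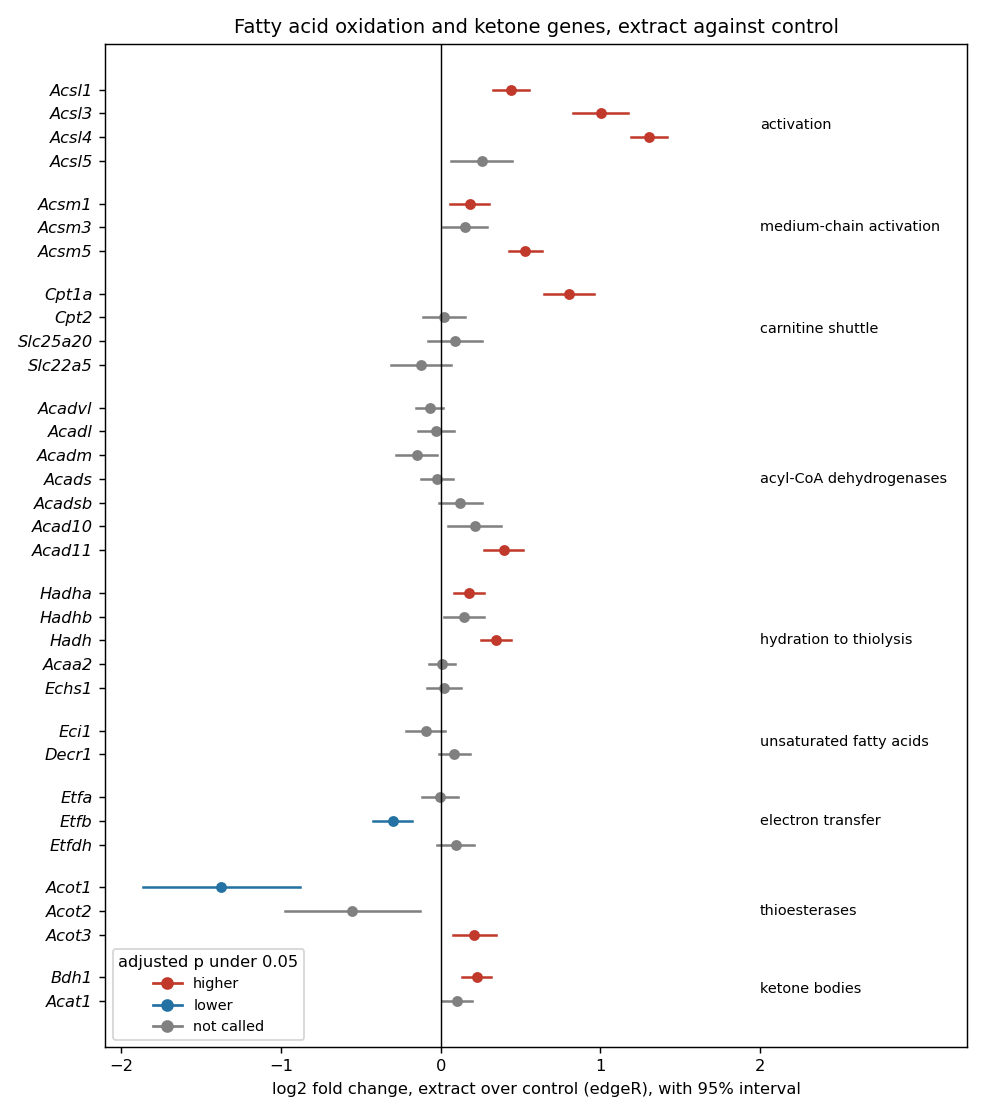
Log2 fold change of each of the 33 genes, extract over control, from edgeR (points) with its 95% interval (lines), grouped by role. Red genes were called higher, blue genes lower and grey genes not called. Acsl3, Acsl4 and Cpt1a stand farthest to the right, and Acot1 stands farthest to the left. The acyl-CoA dehydrogenases other than Acad11 were not called and lie between -0.15 (Acadm) and 0.21 (Acad10).

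Scaling shifts these counts. With library totals in place of TMM factors 9 members were higher and 4 lower, and with limma on log2(FPKM + 0.5) 8 and 5. Over all genes the higher share of calls was 52.6% in the main test, 42.8% with library totals and 40.2% with limma on FPKM. The calls for Acsl1, Acsl3, Acsl4, Acsm5, Cpt1a, Acad11, Hadh, Bdh1, Etfb and Acot1 held under each of the 17 alternatives that tested them. Those for Acsm1, Hadha and Acot3 did not.

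Of the 4 long-chain acyl-CoA synthetases, which trap fatty acids in the cell as coenzyme A esters, 3 rose and 1 was not called. Acsl4 prefers arachidonate and other polyunsaturated fatty acids (ENSMUSG00000031278, GRCm38 gene span chrX:142317993-142390535). It measured 3.51, 3.63 and 3.59 FPKM in the control libraries and 8.66, 8.39 and 8.36 FPKM in the extract libraries. Each group was tight and the groups lay far apart, with a log2 fold change of 1.31 ± 0.05 (SE) over 3 libraries per group and an adjusted p of 4.18e-06 by edgeR. Acsl3, a synthetase of the endoplasmic reticulum and lipid droplets (ENSMUSG00000032883, gene span chr1:78657825-78707743), measured 3.94, 3.73 and 3.31 FPKM in control and 7.02, 6.86 and 7.24 FPKM with the extract. All extract libraries exceeded all control libraries, and the log2 fold change was 1.0 ± 0.08 (SE) and an adjusted p of 7.91e-05 by edgeR. Acsl1, a major synthetase of liver, had a lower mean FPKM than Acsl5 in both groups (31.7 against 42.1 in control, 41.3 against 48.3 with the extract). It measured 32.5, 30.7 and 32.1 FPKM in control and 41.8, 43.4 and 38.8 FPKM with the extract, 1.36 times higher (edgeR adjusted p = 0.000446). Its groups did not overlap, but its rise was smaller than those of the less abundant Acsl3 and Acsl4. Acsl5, found on mitochondria and endoplasmic reticulum, measured 46.3, 44.2 and 35.9 FPKM in control and 48.1, 48.9 and 47.7 FPKM with the extract. Control 3 was the lowest of the 6, and the difference of 0.26 ± 0.08 on the log2 scale was not called (edgeR adjusted p = 0.0517). It was called with DESeq2 (adjusted p = 0.00221), with counts divided by 4 (0.0411), without control 1 (0.0188) and without control 3 (0.0207).

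Acsl3 and Acsl4 made up 8.64%, 8.96% and 9.21% of the summed FPKM of the 4 long-chain synthetases in control and 14.9%, 14.2% and 15.3% with the extract. The sum of all 4 came to 81.1 ± 5.81 FPKM for control and 105 ± 2.75 FPKM for extract (SD, n = 3). Acsl1 and Acsl5 thus remained the bulk of the synthetase transcripts in both groups. Of the 100-base windows of the Acsl3 transcript, 2.80% also occur in Utp14b, a gene nested in it on the same strand.

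The regions just before the start sites of Acsl4, Acsl3, Cpt1a and Acot1 are shown because these members had the largest differences. The second listed start of Acsl1 is shown because it held the 1 match to the sterol response element (SRE), and so was chosen after the motif search. Promoters from RefSeq on GRCm38.p6 were matched by symbol for 30 of the 33 genes (33 start sites), and the 250 bases before each start were searched on both strands. Capitals mark matches to CCAAT (the CCAAT box) or TCACCCCAC (the SRE). The stretches are chrX:142390536-142390785 (minus strand) for Acsl4, chr1:78657575-78657824 (plus) for Acsl3 and chr19:3323051-3323300 (plus) for Cpt1a. They are chr8:46490716-46490965 (plus) for the second listed start of Acsl1 and chr12:84009252-84009501 (plus) for Acot1. The Cpt1a and Acsl1 stretches lie inside the annotated span of their own gene, and annotated exons of the same gene begin within the last bases of the Cpt1a and Acot1 stretches. Each reads 5′ to 3′ toward the start:
Acsl4: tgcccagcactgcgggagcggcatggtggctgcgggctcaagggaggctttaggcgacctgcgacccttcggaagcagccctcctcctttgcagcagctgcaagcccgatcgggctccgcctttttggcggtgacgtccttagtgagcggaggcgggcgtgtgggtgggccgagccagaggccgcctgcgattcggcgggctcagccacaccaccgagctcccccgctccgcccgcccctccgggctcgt
Acsl3: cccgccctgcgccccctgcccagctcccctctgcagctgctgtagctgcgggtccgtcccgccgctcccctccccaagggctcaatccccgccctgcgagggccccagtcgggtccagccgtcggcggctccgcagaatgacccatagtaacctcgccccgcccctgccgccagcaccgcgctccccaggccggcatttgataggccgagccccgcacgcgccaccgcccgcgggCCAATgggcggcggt
Cpt1a: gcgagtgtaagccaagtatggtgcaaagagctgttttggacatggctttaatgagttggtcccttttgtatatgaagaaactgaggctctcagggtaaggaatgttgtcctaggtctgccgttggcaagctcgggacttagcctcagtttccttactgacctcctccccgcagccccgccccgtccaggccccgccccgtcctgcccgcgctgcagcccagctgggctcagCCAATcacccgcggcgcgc
Acsl1: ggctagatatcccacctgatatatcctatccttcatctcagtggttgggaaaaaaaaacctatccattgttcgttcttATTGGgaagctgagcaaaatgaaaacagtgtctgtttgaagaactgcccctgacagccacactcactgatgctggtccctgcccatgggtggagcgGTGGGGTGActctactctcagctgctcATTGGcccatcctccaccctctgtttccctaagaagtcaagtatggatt
Acot1: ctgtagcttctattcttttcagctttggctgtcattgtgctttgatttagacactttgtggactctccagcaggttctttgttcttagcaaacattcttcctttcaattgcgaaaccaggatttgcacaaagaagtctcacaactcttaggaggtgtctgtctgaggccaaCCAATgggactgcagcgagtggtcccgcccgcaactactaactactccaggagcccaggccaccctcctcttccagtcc

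The Acsl4 and Acsl3 stretches are rich in G and C, 70.8% and 75.6%, against a median of 58.8% over the members' promoters and 52.4% over all promoters. Those of Cpt1a, Acsl1 (second start) and Acot1 hold 59.6%, 48.4% and 48.8%. Acad10 and Slc22a5, which were not called, hold 79.6% and 73.6%. CCAAT was found before 15 of the 30 genes, and 33.9% of the 32841 mouse promoters hold it. The SRE letters were found before 1 member, Acsl1, and 0.496% of all promoters hold them. With 1 letter open (TCACNCCAC, which includes the SRE), Acsl1 was again the 1 match, and the share of all promoters was 1.05%. The textbook PPARalpha element, AGGTCA repeated directly with 1 base between, matched 0 of the 33 stretches, and 0.0335% of all promoters. With AGGNCA in each repeat, which includes it, the counts were 0 and 0.338%. CACGTG (E-box) was found before Acsm5 alone (6.02% of all promoters) and the NRF1 palindrome before Etfdh alone (0.783%). TGACGTCA (CRE) and TATAAA matched 0 of the members' stretches, with 1.55% and 12.4% over all promoters. These are matches of letters in short windows and say nothing about binding.

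Medium-chain synthetases act inside mitochondria on shorter fatty acids and on carboxylic acids such as benzoate. Acsm5 measured 20.1, 18.9 and 19.0 FPKM in control and 26.4, 27.4 and 26.6 FPKM with the extract. The groups were well apart, at a log2 fold change of 0.53 ± 0.04 (SE) and an adjusted p of 0.000131 by edgeR. Acsm1, the most abundant of the 3, measured 146, 136 and 126 FPKM in control and 146, 151 and 146 FPKM with the extract. Control 1 lay just under the lowest extract library, and the rise of 1.13 times (edgeR adjusted p = 0.0379) was lost under 14 of 17 alternatives. Acsm3 was at 16.7 ± 0.836 and 17.8 ± 1.14 FPKM (SD, n = 3), with overlapping groups and no call (edgeR adjusted p = 0.0968). Eri2 runs opposite to Acsm3, and 26.5% of the 100-base windows of the Acsm3 transcript occur on the other strand of Eri2, so its value is uncertain.

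**Figure D2:**
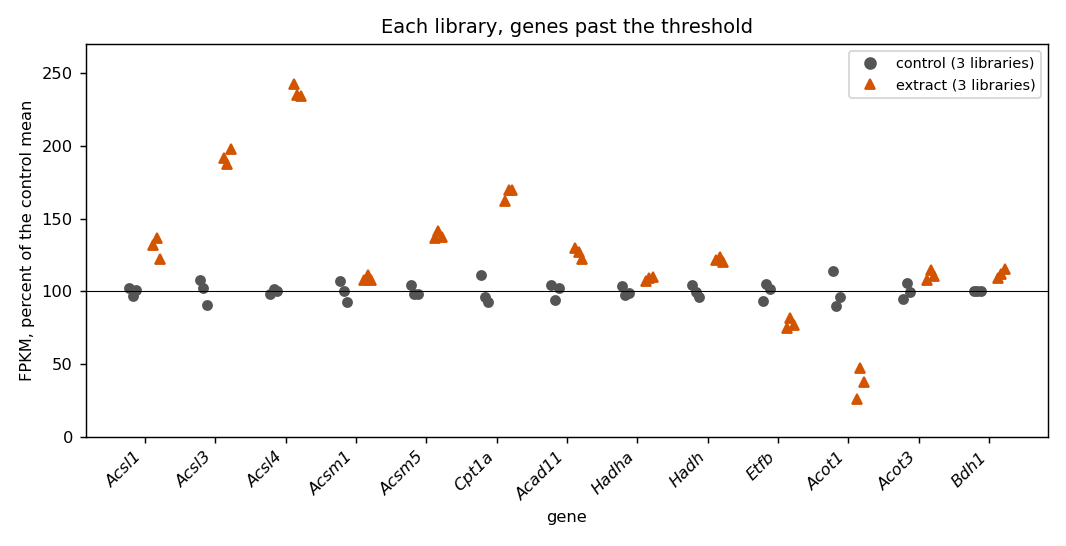
FPKM of each library as a percent of the control mean for the 13 genes called in the edgeR test. Grey circles are control libraries and orange triangles extract libraries. The Acsl4, Acsl3 and Cpt1a triangles stand highest, the Acot1 triangles lie lowest, and the Acsm1, Hadha and Acot3 groups nearly touch.

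In the carnitine shuttle 1 of 4 genes rose. Cpt1a (ENSMUSG00000024900, gene span chr19:3322334-3385733) makes acylcarnitine at the outer membrane and sets the rate of long-chain oxidation. It measured 33.3, 28.9 and 27.9 FPKM in control and 48.6, 51 and 51 FPKM with the extract. Every extract library lay well above every control library, at a log2 fold change of 0.80 ± 0.07 (SE) over 3 libraries per group and an adjusted p of 0.000138 by edgeR. Cpt2, which turns acylcarnitine back to acyl-CoA at the inner membrane, measured 25.8, 25.6 and 28.4 FPKM in control and 25.2, 26.2 and 26.2 FPKM with the extract. These groups overlapped, and the 95% interval of the log2 fold change ran from -0.11 to 0.15. The ratio of Cpt1a to Cpt2 was 1.29, 1.13 and 0.983 in the control libraries and 1.93, 1.95 and 1.94 in the extract libraries. Slc25a20, the carnitine-acylcarnitine carrier, was at 12.4 ± 1.14 and 12.6 ± 0.402 FPKM (edgeR adjusted p = 0.406). Slc22a5, the carnitine importer of the plasma membrane, was at 6.05 ± 0.205 and 5.33 ± 0.515 FPKM (edgeR adjusted p = 0.310). Of the windows of Slc22a5, 13.7% also occur in its relative Slc22a21.

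Of the 7 acyl-CoA dehydrogenases, which begin each cycle, 1 rose and 6 were not called. Acadvl, Acadl, Acadm and Acads handle very long, long, medium and short chains. Acadvl measured 116, 118 and 120 FPKM in control and 107, 110 and 107 FPKM with the extract. Its FPKM values did not overlap, yet the TMM-scaled log2 fold change was -0.07 with a 95% interval of -0.15 to 0.02 (edgeR adjusted p = 0.218). It was called lower under 6 of 17 alternatives. These were the 4 limma fits on FPKM (adjusted p = 0.0313 with log2(FPKM + 0.5)), edgeR with upper-quartile factors (0.0478) and edgeR on genes of at least 5 FPKM (0.0365). Acadm measured 58.8, 56.8 and 64.1 FPKM in control and 52.8, 51.6 and 50.8 FPKM with the extract. Its log2 fold change was -0.15 ± 0.06 (edgeR adjusted p = 0.0807), and it was called lower under 8 of 17 alternatives, DESeq2 among them (adjusted p = 0.0401). Acadl was at 81.1 ± 2.05 and 76.0 ± 2.77 FPKM and Acads at 51.9 ± 2.05 and 49.0 ± 0.972 FPKM, with log2 fold changes of -0.03 and -0.02.

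Acad11, a dehydrogenase of long-chain and 4-hydroxy acids, was the member of the family that rose. It measured 20.4, 18.3 and 19.9 FPKM in control and 25.3, 24.8 and 23.8 FPKM with the extract, 1.32 times higher (edgeR adjusted p = 0.00131). The groups did not overlap. Ackr4 lies inside the Acad11 span on the other strand and shares 8.49% of its windows. Acad10 was at 3.97 ± 0.263 and 4.42 ± 0.240 FPKM (edgeR adjusted p = 0.0642), and 10.4% of its windows also occur in Acad12. Acadsb, which acts on branched short chains from isoleucine, was at 11.2 ± 0.615 and 11.7 ± 0.568 FPKM (edgeR adjusted p = 0.161). Summed, the 7 genes came to 346 ± 9.02 FPKM for control and 325 ± 0.707 FPKM for extract.

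The hydration, dehydrogenation and thiolysis steps held 5 members, of which 2 rose. Hadh, the short-chain 3-hydroxyacyl-CoA dehydrogenase, measured 42.7, 40.9 and 39.4 FPKM in control and 49.9, 50.7 and 49.3 FPKM with the extract. The groups were apart, at a log2 fold change of 0.35 ± 0.04 (SE) and an adjusted p of 0.000669 by edgeR. Hadha and Hadhb encode the subunits of the mitochondrial trifunctional protein, which carries out the later steps for long chains. Hadha measured 28.3, 26.7 and 27.0 FPKM in control and 29.2, 29.7 and 29.9 FPKM with the extract, 1.13 times higher (edgeR adjusted p = 0.0160). That small rise was lost under 7 of 17 alternatives: without control 2 (adjusted p = 0.0573), without extract 2 (0.0534) and without extract 3 (0.0632), and in the 4 limma fits on FPKM. Hadhb measured 12.4, 13.7 and 14.1 FPKM in control and 14.2 FPKM in each extract library, and was not called (edgeR adjusted p = 0.0894). The ratio of Hadha to Hadhb was 2.05 ± 0.204 in control and 2.08 ± 0.0305 in extract.

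Those subunit genes lie head to head on chromosome 5, with 272 bases between their RefSeq starts. Their log2 fold changes were 0.18 ± 0.04 (Hadha) and 0.14 ± 0.06 (Hadhb), with SE, and neither promoter held a motif searched. The searched stretches were chr5:30154981-30155230 (Hadha) and chr5:30155003-30155252 (Hadhb). Much of each lies inside the annotated span of Hadha, which ends at base 30155162. Of the windows of the Hadhb transcript, 52.8% also occur in the gene models Gm13910 and Gm9108, which makes the Hadhb value uncertain.

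Acaa2, the thiolase that releases acetyl-CoA, was the most abundant member. It measured 336, 334 and 336 FPKM in control and 317, 330 and 322 FPKM with the extract. All extract libraries were slightly lower in FPKM, but the TMM-scaled log2 fold change was 0.01 with a 95% interval of -0.07 to 0.09. Echs1, the short-chain enoyl-CoA hydratase, was at 17.2 ± 0.560 and 16.7 ± 0.820 FPKM (edgeR adjusted p = 0.759). Eci1 and Decr1 prepare the double bonds of unsaturated fatty acids for the cycle, and neither was called. Eci1 was at 23.6 ± 1.14 and 21.2 ± 1.06 FPKM (edgeR adjusted p = 0.233), and Decr1 at 27.6 ± 0.338 and 28.0 ± 0.928 FPKM (edgeR adjusted p = 0.163).

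**Figure D3:**
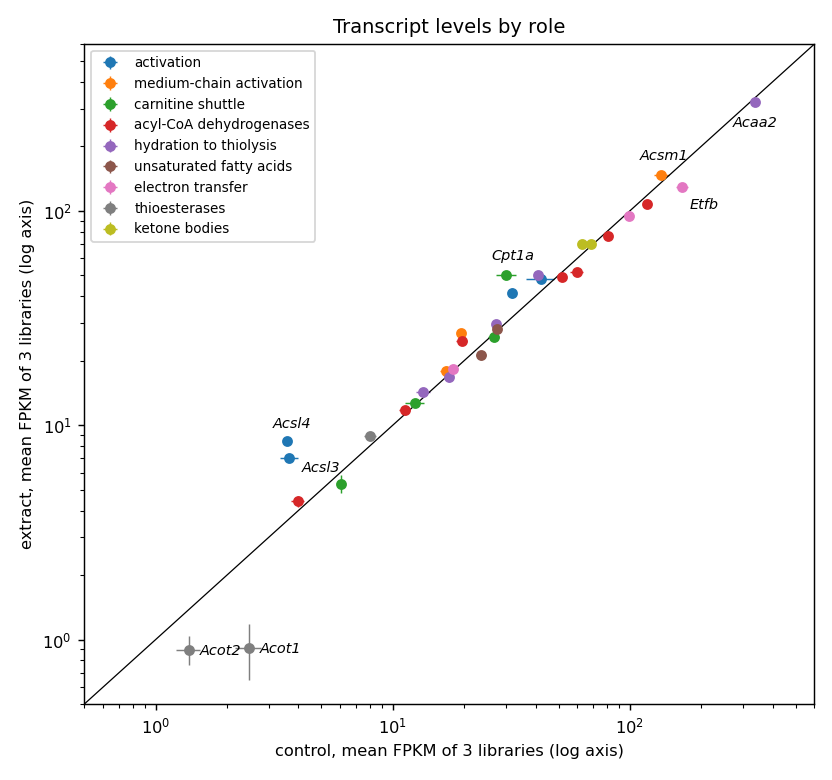
Mean FPKM of the 3 extract libraries against the mean of the 3 control libraries, both on log axes, with the SD as bars and colours by role. The line marks equal levels. Acsl3, Acsl4 and Cpt1a lie above it, Acot1, Acot2 and Etfb below it, and Acaa2 is highest at 336 FPKM in control.

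Of the 3 electron transfer genes 1 fell. Etfb, the smaller subunit of the electron transfer flavoprotein, measured 155, 175 and 169 FPKM in control and 125, 136 and 128 FPKM with the extract. Its groups did not overlap, and it fell by 0.30 on the log2 scale, with an SE of 0.05 and an adjusted p of 0.00439 by edgeR. Its partner subunit Etfa measured 103, 93.9 and 99.2 FPKM in control and 95, 97.2 and 91.1 FPKM with the extract, with overlapping groups (edgeR adjusted p = 0.965). The ratio of Etfa to Etfb was 0.596 ± 0.0644 in control and 0.731 ± 0.0266 in extract. Etfdh, the oxidoreductase that passes the electrons on to ubiquinone, was at 17.9 ± 0.872 and 18.3 ± 0.0920 FPKM (edgeR adjusted p = 0.204). Of the windows of the Etfb transcript 65.2% also occur in Gm45233, a gene model that overlaps it on the same strand, so the Etfb value is uncertain.

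Acyl-CoA thioesterases split acyl-CoA back to free fatty acid and coenzyme A. Acot1 is the cytosolic enzyme, Acot2 its mitochondrial relative and Acot3 a peroxisomal one, all in a cluster on chromosome 12. Acot1 (ENSMUSG00000072949, gene span chr12:84009490-84018371) measured 2.82, 2.23 and 2.38 FPKM in control and 0.638, 1.18 and 0.928 FPKM with the extract. All extract libraries were lower than all control libraries, at a log2 fold change of -1.37 ± 0.21 (SE) over 3 libraries per group and an adjusted p of 0.00253 by edgeR. Acot2 measured 1.55, 1.36 and 1.23 FPKM in control and 0.746, 1.01 and 0.942 FPKM with the extract. Its groups did not overlap either, but the log2 fold change of -0.55 ± 0.18 was not called (edgeR adjusted p = 0.0581). It was called lower under 6 of the 16 alternatives that tested it, such as library totals (edgeR adjusted p = 0.0415) and limma on log2(FPKM + 0.5) (0.0225). Acot3 went the other way, from 7.59, 8.48 and 8.0 FPKM to 8.62, 9.21 and 8.85 FPKM, 1.16 times higher (edgeR adjusted p = 0.0310). That call was lost under 12 of 17 alternatives.

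Reads of the cluster can be exchanged between its genes. The longest open reading frames of Acot1 and Acot2 were identical at 95.2% of 1239 aligned bases, with a longest identical run of 273 bases. Those of Acot1 and Acot3 were identical at 83.9%. Of the 100-base windows of the Acot1 transcript 21.9% occur in other genes of the family, as do 17.1% of those of Acot2. Of the Acot3 windows 14.3% occur in Gm49366, which overlaps it on the same strand over 6470 bases, or in relatives, so the Acot3 value is uncertain too. The ungapped 90 bases in which the Acot1 and Acot2 frames differ most hold 14 differences, in capitals, and are shown because reads here tell the genes apart (GENCODE M21, bases 797 to 886 of the Acot1 frame and 920 to 1009 of the Acot2 frame):
Acot1: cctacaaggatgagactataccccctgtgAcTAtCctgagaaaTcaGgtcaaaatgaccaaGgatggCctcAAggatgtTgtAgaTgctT
Acot2: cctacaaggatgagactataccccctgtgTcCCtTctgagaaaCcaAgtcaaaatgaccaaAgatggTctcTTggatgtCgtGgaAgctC

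Ketone synthesis joins acetyl-CoA units through acetoacetyl-CoA (Acat1) and ends with the reduction of acetoacetate to beta-hydroxybutyrate (Bdh1). Bdh1 measured 62.7, 62.6 and 62.5 FPKM in control and 68.2, 70.0 and 72.0 FPKM with the extract. The groups did not overlap, and the rise was 1.17 times (log2 fold change 0.22, SE 0.04, adjusted p = 0.00479 by edgeR). Acat1 measured 69.6, 66.2 and 69.2 FPKM in control and 69.5, 72.6 and 69.0 FPKM with the extract. These groups overlapped and Acat1 was not called, with a 95% interval of 0.01 to 0.20 for its log2 fold change (edgeR adjusted p = 0.104).

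Of the 20 members not called, 19 had a 95% interval that lay within 0.5 of 0 on the log2 scale. The exception was Acot2. Over those 19 the interval bounds ran from -0.31 to 0.45. The intervals of Acsl5, Acsm3, Acadm, Acad10, Hadhb and Acat1, not adjusted for the number of genes, left out 0. The margin of 0.5 is wider than some called changes, such as that of Bdh1 (log2 fold change 0.22). For 22 of the 33 genes (66.7%) the FPKM ranges of control and extract were separate, against 44.6% of all genes tested. Of these 22, 13 were above control and 9 below. No such share was counted for genes as abundant as the members, and these FPKM ranges are without TMM scaling. Summed over all 33 genes, FPKM came to 1585 ± 7.62 for control and 1593 ± 27.5 for extract (SD, n = 3).

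Genes around the members were counted in 6 lists. For comparison with these and the marker lists below, 26.9% of all genes tested were called (14.2% higher and 12.8% lower). Among genes with a mean of at least 5 FPKM, tested alone, 51.4% were called (26.4% higher and 25% lower). Whether any list departs from these shares was not tested. Of the other ketone genes, 2 of 8 tested rose and 2 fell. Aacs, which uses acetoacetate for lipid synthesis in the cytosol, was 2.36 times higher (edgeR adjusted p = 5.34e-05). The transporter Slc16a6 fell by 0.27 on the log2 scale (edgeR adjusted p = 0.0457). With library totals 1 gene of this list was higher and 2 were lower, and with the filter on low counts left out 0 were lower. Without 1 library 0 to 1 were lower, and 1 was higher except without control 3, where 3 were.

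Of the regulators of fatty acid oxidation 13 of 30 rose and 5 fell. Ppara, the nuclear receptor with many known targets among the members, went from 11.5 ± 1.75 to 24.1 ± 1.21 FPKM. It was 2.18 times higher (edgeR adjusted p = 0.000207). Whether its rise bears on the members was not tested. Acaca and Acacb make malonyl-CoA, the inhibitor of the Cpt1a enzyme, and were 1.92 and 2.09 times higher (edgeR adjusted p = 0.000636 and 0.00278). Foxa2 and Prkaa2, a forkhead factor and a catalytic subunit of AMP-activated kinase, were 2.49 and 1.79 times higher. Mid1ip1, an activator of the acetyl-CoA carboxylases, was 2.50 times higher, and Lpin1, a coactivator and phosphatidate phosphatase, fell by 0.80 on the log2 scale. The 5 lower regulators became 3 without extract 2 or extract 3.

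In the list of peroxisomal beta-oxidation 12 of 23 genes tested rose and 5 fell. The transporter Abcd3, the reductase Decr2 and the thiolase Acaa1b were 1.57, 1.5 and 1.41 times higher (edgeR adjusted p = 6.8e-05, 0.000217 and 0.00018). Without extract 1 or extract 3, 3 of the list were lower. Whether the peroxisomal and mitochondrial lists differ was not tested.

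Among 29 other mitochondrial acyl-CoA enzymes tested, 4 rose and 2 fell. Acsf2, a medium-chain acyl-CoA synthetase, and the thioesterase Acot11 were 1.79 and 1.65 times higher, and Eci2 and Echdc2, of the isomerase and hydratase family, fell by 0.36 and 0.46 on the log2 scale. In the list of uptake, binding and lipolysis 5 of 21 genes rose and 8 fell. On the log2 scale, the fatty acid binding proteins Fabp1 and Fabp2 fell by 0.57 and 0.64. Slc27a2, a transporter and very-long-chain synthetase, and Acbd5, an acyl-CoA binding protein of peroxisomes, were 1.32 and 1.45 times higher. Of 21 tricarboxylic acid cycle genes tested 9 rose and 1 fell, with Sucla2, Sdhd, Idh3a and Dlst 1.31, 1.19, 1.29 and 1.21 times higher. With limma on log2(FPKM + 0.5) 4 of that list were higher and 2 lower, without control 2 the numbers were 2 and 0, and without extract 2 they were 5 and 0.

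**Figure D4:**
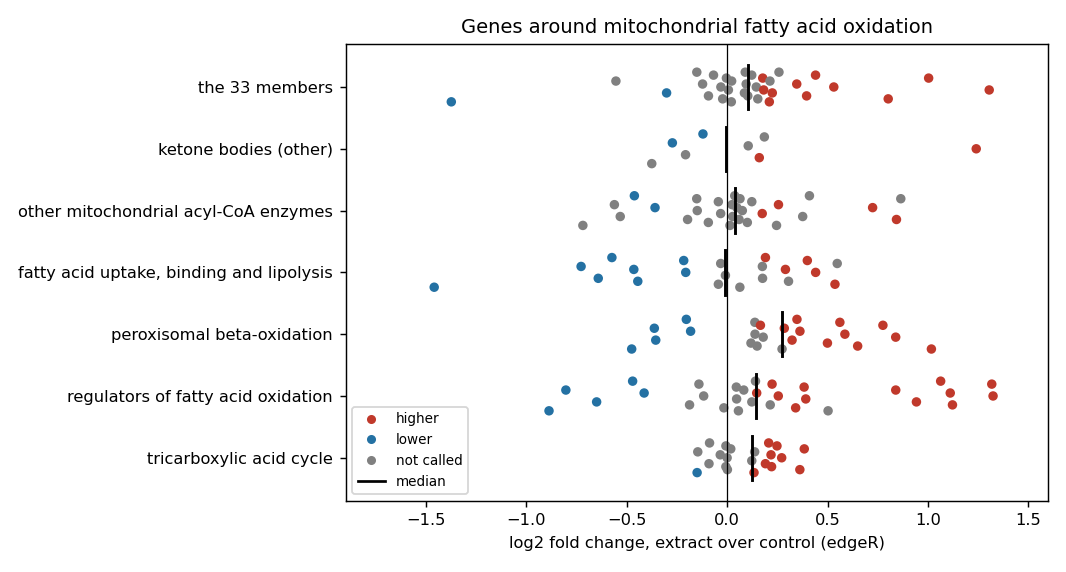
Log2 fold change (edgeR, extract over control) of each tested gene in the 33-member set and in 6 lists of neighbouring genes, 1 point per gene, coloured by call, with the median as a black bar. The peroxisomal list has the median farthest to the right, 0.27, against 0.10 for the 33 members.

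Markers of other cells and of the liver zones were measured in the same libraries. The 15 hepatocyte markers tested had 5 higher and 6 lower, with summed levels of 54440 to 61458 FPKM in control and 52256 to 52881 FPKM in extract. Pericentral markers had 5 of 8 higher and 1 lower, and periportal markers 1 of 10 higher and 8 lower, with Sds, a periportal dehydratase, falling by 1.53 on the log2 scale. Red cell markers were lower for 7 of 7 tested, leukocyte markers for 11 of 14, Kupffer cell markers for 11 of 12 and endothelial markers for 5 of 10. Their summed FPKM ran from 1272 to 1617 in control and 198 to 236 in extract (red cell), 56.0 to 112 and 12.5 to 16.2 (leukocyte), 507 to 533 and 305 to 321 (Kupffer), and 57.0 to 63.4 and 44.9 to 48.3 (endothelial). In these bulk samples fewer cells of a type and less RNA per cell cannot be told apart. Stellate and bile duct markers had 2 of 11 higher and 2 lower, at 65.0 to 75.9 FPKM in control and 57.0 to 70.7 FPKM in extract. The part of these shifts in the results above was not tested.

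Muscle, fat and pancreas markers were uneven between libraries. Muscle markers summed to 306, 224 and 1.27 FPKM in controls 1, 2 and 3 and to 276 to 389 FPKM in extract, with 1 of 13 called higher. Pancreas markers summed to 6.19, 6.76 and 64.2 FPKM in the controls and to 64.0 to 70.9 FPKM in extract, with 0 of 10 tested called by edgeR, 0 of 10 at an unadjusted p under 0.05, and 0 of the 5 that DESeq2 gave an adjusted p. Fat cell markers summed to 248 to 315 FPKM in control and 345 to 389 FPKM in extract, nearly all from Car3, which liver also expresses, with 1 of 2 tested higher. Cpt1b, the muscle form of the Cpt1a enzyme, followed no group: 1.31, 1.46 and 0.0479 FPKM in control and 0.965, 0.120 and 0.717 FPKM in extract (edgeR adjusted p = 0.714). Without control 3, the library that lacks the muscle signal, 12 members were higher and 2 lower.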

How the data were processed

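The comparison used 3 control and 3 extract libraries of liver RNA. Per the submitters' processing notes the tools included HISAT2 2.0.4, StringTie 1.3.4d, cutadapt 1.9 and edgeR, without roles or settings. No build is named in the sources used here. The table deposited by the authors holds whole-number estimated counts per gene and FPKM per library, per the file headers. Low counts peak at 4, so 1 read pair may add several counts. Another 6 columns of per-sample values match no sample and were not used.

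The main test was edgeR 4.0.16 under R 4.3.3 (filterByExpr, TMM, quasi-likelihood, two-sided, adjustment over 18071 genes). Each standard error is the fold change over the root of its F statistic, and intervals are at 95%. Alternatives used DESeq2 1.42.0, limma 3.58.1, other scalings and filters, a replicate block, and each library left out. All 33 members were named, those called with every library, and of other lists up to 4 genes of smallest p plus Ppara, Acaca and Acacb. Some genes that this rule names are not reported here. Members and lists were chosen with earlier results of these data known.

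Counts were simulated for the 18071 genes of this comparison, with 200 genes drawn at random and changed. There edgeR recovered 57% of genes shifted by 1 log2 unit and 81% of those shifted by 2. Of its 162 calls 24 (14.8%) were false, at a threshold of 0.05. The data had 4870 calls, and the median SE was 0.05 over the members against 0.14 over all genes tested. The simulated shares therefore need not hold for the members. Spans of 32 of the 33 members equal those of GENCODE M21 on GRCm38. Shared sequence was counted in 100-base windows of the longest protein-coding transcript of each member against all GENCODE transcripts. Read length is not given in the sources used.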

Additional observations from a re-analysis of the deposited data

How the results depend on the processing

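Over all genes 4870 were called, 2561 higher and 2309 lower. On genes of at least 5 FPKM, where fewer were tested, the numbers were 2507, 1288 and 1219, and limma on FPKM without a filter called 1485 higher. Leaving out 1 library gave 3237 to 4706 calls, 1776 to 2553 higher and 1442 to 2153 lower, with the lowest totals without extract 2 (3237) and without control 2 (1442 lower). Members called lower numbered 2 in the main test, 5 with upper-quartile factors, 4 with library totals and 5 with limma on FPKM at each of the pseudocounts 0.1, 0.5 and 1. Without 1 library, 8 to 12 members were higher and 2 to 3 lower. Over the 17 alternatives 10 of the 13 called members kept their call in each that tested them. Across members, 33 values lost a call, 29 gained one and 0 called values changed sign. Another 30 values, called in neither fit, changed sign. Deviations from the group mean had correlations of -0.12, -0.03 and -0.09 between same-numbered libraries. Between control and extract libraries of unlike number they ran from -0.07 to 0.15. With no pair known to share a block for reference, these values cannot show whether same-numbered libraries share more than a number. A fit with the replicate number as a block called 3746 genes, 2044 higher and 1702 lower, with 9 members higher and 2 lower, Acsm1 (adjusted p = 0.0723) and Acot3 (0.0551) being lost. The standard errors of Acot1 (0.21) and Acot2 (0.18), the members lowest in control FPKM, were the largest of the 33.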
